A study of Homo sapiens with 4 samples.

Results

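The genes described here are 35 genes of the hypoxia response and of glycolysis, chosen by name from the 56303 genes of the deposited count table. They comprise 13 genes that hypoxia-inducible factor (HIF) is known to induce outside glycolysis, 3 glucose and lactate transporters, and 19 glycolytic enzymes and their regulators. All 35 were listed in the table, and 32 passed a filter of 10 counts in at least 1 library and 20 counts over the 4 libraries, as 17689 genes did in all. The libraries came from T24T and EJ, human bladder cancer cell lines, each transfected with the circular RNA hsa_circ_0008399 (circ) or with the vector alone, so that every combination of line and transfection is 1 library. The stated purpose was to find which genes act below the circular RNA. T24T is a derivative of the T24 line, and EJ is catalogued as a derivative of T24 as well, so the lines do not stand for separate donors. The level of the circular RNA itself was not analysed here.

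Total counts were 18057768 in T24T circ, 16864247 in T24T vector, 14703455 in EJ circ and 15639289 in EJ vector. The keratin genes KRT7, KRT8 and KRT18 lay between 21.0 and 188 RPKM (reads per kilobase of exon, scaled to library depth) in the 4 libraries. KRT5 and UPK3A had no count in any library, and CDH1, GATA3 and TP63 lay at or below 0.03 RPKM, so these defining urothelial and epithelial markers were absent or nearly so. Of 7 leukocyte markers, 4 or 5 per library had no count, and their summed level lay between 4.76 and 28.1 RPKM, nearly all of it CD68. Of 4 mesenchymal markers 3 were tested, and the log2 ratio of circ over vector was below 0 for all 3 in both lines (median -0.32 in T24T and -0.11 in EJ). FN1, the fibronectin gene, named after its values were seen, fell in the edgeR fit over both lines (-0.73 ± 0.09, edgeR adjusted p = 7.42e-07). The summed level of the 4 was 154 RPKM in T24T circ against 221 in T24T vector, and 153 in EJ circ against 162 in EJ vector. Mitochondrial genes made up 3.08% of all counts in T24T circ against 5.05% in T24T vector, and 4.01% in EJ circ against 5.40% in EJ vector. The part of the mesenchymal and mitochondrial differences in the results given here was not tested.

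Oxygen controls HIF through its alpha subunits, HIF1A and EPAS1. Prolyl hydroxylases of the EGLN family use oxygen to mark these subunits for destruction by the VHL ubiquitin ligase. Subunits that escape pair with ARNT and switch on genes for glucose uptake, glycolysis, blood vessel growth and mitochondrial turnover. Glycolysis turns glucose into pyruvate, and lactate dehydrogenase and lactate exporters carry it on to secreted lactate, a route that many tumour cells use even with oxygen present.

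In T24T cells most HIF-induced genes were higher with circ than with vector, while the abundant glycolytic enzymes lay close to their vector level. In T24T cells ADM, ANKRD37, STC2 and HK2 were at least 2-fold higher with circ and no tested member was 2-fold lower, against 2.52% of all tested genes 2-fold higher and 1.39% 2-fold lower. In EJ cells ADM was at least 2-fold higher, and no other tested member was 2-fold apart, against 2.26% of all tested genes 2-fold higher and 1.57% 2-fold lower. In bulk samples of this kind, fewer cells that express a gene and less RNA per cell cannot be told apart. The median log2 ratio of circ over vector of the 11 tested HIF-induced genes was 0.46 in T24T and -0.10 in EJ. For the 19 enzymes and regulators it was 0.0032 in T24T and -0.13 in EJ. Over all tested genes the median was 0.0082 in T24T and 0 in EJ, with an interquartile range of -0.21 to 0.24 in T24T and -0.21 to 0.22 in EJ. Of the HIF-induced genes, 10 of 11 had a ratio above 0 in T24T and 4 of 11 in EJ. Over all tested genes the share above 0 was 51.0% in T24T and 49.9% in EJ. With 1 library per group, these ratios have no replicate check within a line.

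**Figure D1:**
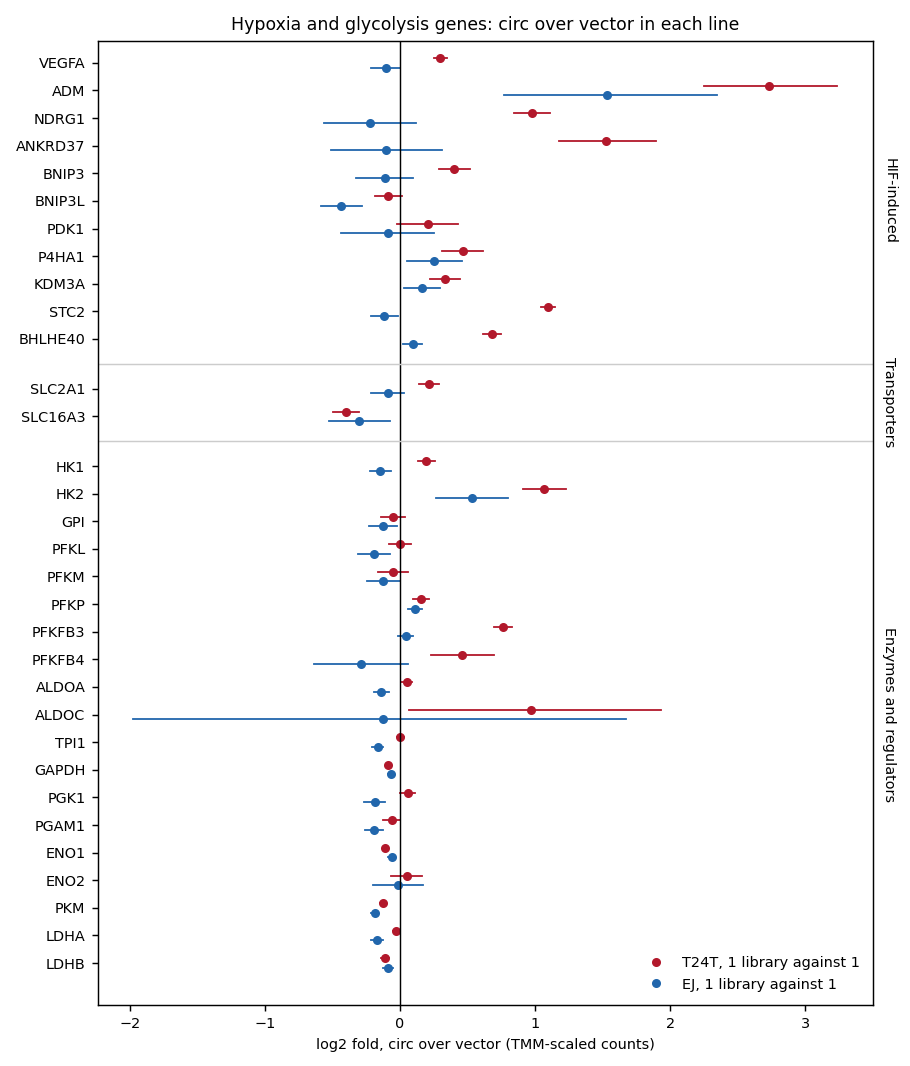
Fold of circ over vector on the log2 scale (x axis) for the 32 tested members (y axis), in T24T (red) and EJ (blue). Points are ratios of 1 library to 1 library and lines are 95% intervals of counting error alone (exact binomial); in T24T ADM, ANKRD37, STC2 and HK2 lie farthest to the right, and most abundant enzymes lie near 0 in both lines.

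The only replication of the transfection is that it was done in both lines. Circ was therefore compared with vector over both lines with the edgeR quasi-likelihood test, with the cell line as a block. Of 32 tested members, 8 rose, 1 fell and 23 did not pass at an adjusted p of 0.05. The background over all tested genes was 7.13% rises and 5.56% falls. The rises were 6 of the 11 HIF-induced genes (ADM, NDRG1, ANKRD37, P4HA1, STC2 and BHLHE40) and 2 of the 19 enzymes and regulators (HK2 and PFKFB3). The fall was that of the lactate exporter gene SLC16A3. With 1 residual degree of freedom left, each standard error rests mostly on spread pooled over genes. DESeq2 called HK2 alone and gave no adjusted p for ADM and ANKRD37 (background in DESeq2 2.9% rises and 2.45% falls). Without the block for line edgeR called 0 of the 9, with 1 member at an unadjusted p under 0.05. Limma on log2(RPKM + 1) called 0 of all tested genes, with 4 members at an unadjusted p under 0.05.

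ADM, on chromosome 11 (hg38, 10304680 to 10307397, plus strand), encodes the secreted vasodilator peptide adrenomedullin. It had 286 counts in T24T circ against 41 in T24T vector, and 54 counts in EJ circ against 20 in EJ vector. Both circ libraries were above both vector libraries. The fold was 6.62 in T24T (95% counting interval 4.76 to 9.42) and 2.89 in EJ (1.70 to 5.09). Over both lines the ADM rise was 2.36 ± 0.24 on the log2 scale (SE, n = 2 lines, edgeR adjusted p = 2.67e-08), the largest called change among the members.

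ANKRD37, on chromosome 4 (hg38, 185396021 to 185400628, plus strand), encodes a small ankyrin repeat protein known as a HIF target. It had 267 counts in T24T circ against 88 in T24T vector, and 95 in EJ circ against 109 in EJ vector. The T24T circ library stood alone, above the other 3. The fold was 2.88 in T24T (2.26 to 3.71) and 0.932 in EJ (0.700 to 1.24), and the fit over both lines gave 0.79 ± 0.22 (SE, n = 2 lines, edgeR adjusted p = 0.0134). Exons of UFSP2 on the opposite strand cover 35.2% of the exon bases of ANKRD37, and UFSP2 had 312 counts in T24T circ against 174 in T24T vector. Whether counting used strand is not given in the sources used here, so reads of the pair cannot be told apart.

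STC2, which encodes the secreted glycoprotein stanniocalcin-2, and NDRG1, a stress-responsive gene used as a marker of hypoxia, showed the same split between lines. STC2 had 9459 counts in T24T circ against 4204 in T24T vector, and 1594 in EJ circ against 1847 in EJ vector. Its fold was 2.14 in T24T (2.06 to 2.22) and 0.923 in EJ (0.863 to 0.988). NDRG1 had 1431 counts in T24T circ against 690 in T24T vector, and 130 in EJ circ against 162 in EJ vector. Its fold was 1.97 in T24T (1.80 to 2.16) and 0.858 in EJ (0.676 to 1.09). The test over both lines passed for STC2 (0.51 ± 0.14, SE, n = 2 lines, edgeR adjusted p = 0.0120) and NDRG1 (0.58 ± 0.15, SE, n = 2 lines, edgeR adjusted p = 0.00851), but for ANKRD37, STC2 and NDRG1 alike the ratio in EJ alone was below 0, so these calls rest on T24T.

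BHLHE40, which encodes a transcriptional repressor of clock and metabolic genes, had 4937 counts in T24T circ against 2922 in T24T vector, and 3408 in EJ circ against 3415 in EJ vector. It was 1.60-fold higher with circ in T24T (1.53 to 1.68) and 1.07-fold higher in EJ (1.02 to 1.12), and rose by 0.39 ± 0.10 over both (SE, n = 2 lines, edgeR adjusted p = 0.00727). P4HA1, a collagen prolyl hydroxylase subunit gene, had 880 counts in T24T circ against 606 in T24T vector, and 421 in EJ circ against 378 in EJ vector. P4HA1 rose by 0.37 ± 0.10 (SE, n = 2 lines, edgeR adjusted p = 0.0169), with the 2 lines closer together than for any other HIF-induced gene that rose (log2 ratios of 0.46 in T24T and 0.25 in EJ).

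The remaining HIF-induced genes did not pass the test. VEGFA, the vascular endothelial growth factor gene, had 7541 counts in T24T circ against 5826 in T24T vector, and 1286 in EJ circ against 1480 in EJ vector, with a fitted log2 fold change of 0.11 ± 0.09 (SE, n = 2 lines, edgeR adjusted p = 0.504). BNIP3 and BNIP3L encode receptors that send mitochondria to autophagy. BNIP3 had 1484 counts in T24T circ against 1068 in T24T vector, and 348 in EJ circ against 403 in EJ vector. BNIP3L had 1664 counts in T24T circ against 1678 in T24T vector, and 614 in EJ circ against 887 in EJ vector. Of the summed RPKM of both genes, BNIP3 made up 41.9% in T24T circ (40.2% to 43.6%) against 34.0% in T24T vector (32.3% to 35.7%), and 31.4% in EJ circ (28.6% to 34.4%) against 26.9% in EJ vector (24.6% to 29.3%). BNIP3L came nearest to a fall (-0.25 ± 0.09, SE, n = 2 lines, edgeR adjusted p = 0.0775) and did pass when counts were scaled by RLE size factors. The histone demethylase gene KDM3A (0.25 ± 0.09, edgeR adjusted p = 0.0613) and PDK1, the kinase that inhibits pyruvate dehydrogenase (0.08 ± 0.14, edgeR adjusted p = 0.768), were also above 0 without passing.

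Some of the most widely used hypoxia markers could not be tested. CA9, the membrane carbonic anhydrase gene, had 1 count in T24T circ, 0 in T24T vector, 0 in EJ circ and 2 in EJ vector. EGLN3, the HIF-induced prolyl hydroxylase gene, had 2 counts in T24T circ, 3 in T24T vector and 0 in both EJ libraries. SLC2A3, the neuronal-type glucose transporter gene, had 6 counts in T24T circ, 3 in T24T vector and 0 in both EJ libraries. A count of 0 allows up to 3 counts, a CPM of 0.204 in EJ circ and of 0.192 in EJ vector. The pseudogenes of SLC2A3 summed to 248 counts in T24T circ, 233 in T24T vector, 362 in EJ circ and 473 in EJ vector, more than the parent gene in each library.

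HIF binds the core letters ACGTG and GCGTG, and the 250 bases upstream of RefSeq transcript starts (GRCh38.p14) were searched for both, on both strands. Of the 35 members 31 matched the promoter table, with 58 windows since a gene can have several starts. VEGFA, NDRG1, BNIP3L and SLC2A3 were not matched. ACGTG was found in 22 of 58 member windows (37.9%) and in 18.5% of all 35116 promoter windows of that length. ACGTG or GCGTG was found in 35 of 58 (60.3%) and in 43.2% of all windows. By gene, all 7 risen members with a window and 18 of the 22 other tested members held either motif, as did 47.4% of all genes of the promoter table. ACGTG was held by 5 of the 7 risen members, 13 of the 22 others and 21.7% of all genes of that table. Genes with several windows have more chances of a match, and the genes were not matched for this. The sequences that follow belong to the risen members with the largest fold changes, and to LDHA, which did not pass the test and had the member window with the most ACGTG matches, at 5. They run 5′ to 3′ on the gene's strand, which is plus for all, and end at the base before the start. Capitals mark every match of either motif or its reverse complement, and in CACGTG a match on each strand overlaps.
ADM (chr11:10304823-10305072): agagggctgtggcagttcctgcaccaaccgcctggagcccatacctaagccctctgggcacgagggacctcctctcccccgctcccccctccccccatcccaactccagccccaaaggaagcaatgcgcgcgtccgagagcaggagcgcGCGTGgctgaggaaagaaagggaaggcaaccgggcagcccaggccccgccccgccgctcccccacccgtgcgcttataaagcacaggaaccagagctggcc
ANKRD37 (chr4:185396591-185396840): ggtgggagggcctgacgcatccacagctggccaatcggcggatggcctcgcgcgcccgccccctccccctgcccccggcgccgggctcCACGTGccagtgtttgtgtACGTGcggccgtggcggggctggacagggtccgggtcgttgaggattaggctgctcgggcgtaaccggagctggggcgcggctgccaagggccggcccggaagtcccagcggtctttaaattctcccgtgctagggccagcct
HK2 (chr2:74833877-74834126): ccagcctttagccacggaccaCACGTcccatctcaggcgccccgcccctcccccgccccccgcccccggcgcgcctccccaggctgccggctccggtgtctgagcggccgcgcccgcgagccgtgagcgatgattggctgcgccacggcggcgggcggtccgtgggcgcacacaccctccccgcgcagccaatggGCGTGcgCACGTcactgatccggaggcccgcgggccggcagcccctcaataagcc
LDHA (chr11:18394313-18394562): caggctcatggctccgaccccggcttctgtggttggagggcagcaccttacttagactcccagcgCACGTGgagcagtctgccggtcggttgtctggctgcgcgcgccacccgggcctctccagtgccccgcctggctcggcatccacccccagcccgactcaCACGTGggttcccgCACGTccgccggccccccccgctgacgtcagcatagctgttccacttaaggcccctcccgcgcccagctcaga
The ADM window held 1 GCGTG and no ACGTG, the ANKRD37 window 3 ACGTG, and the HK2 window 2 ACGTG and 1 GCGTG. A match is a string of letters in this window and was not tested for binding.

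Among glycolytic enzymes, HK2 stood apart. It encodes the inducible hexokinase that traps glucose as glucose 6-phosphate, and it lies on chromosome 2 (hg38, 74833981 to 74893359, plus strand). HK2 had 1055 counts in T24T circ against 478 in T24T vector, and 277 in EJ circ against 205 in EJ vector. The fold was 2.10 in T24T (1.88 to 2.34) and 1.45 in EJ (1.20 to 1.74), the same direction in both lines, and the rise over both was 0.85 ± 0.12 (SE, n = 2 lines, edgeR adjusted p = 9.09e-06; DESeq2 adjusted p = 0.00527). HK1, the housekeeping hexokinase, had 42.5 RPKM in T24T circ against 37.7 in T24T vector, and 26.0 in EJ circ against 28.9 in EJ vector. Its fitted log2 fold change of 0.03 ± 0.09 did not pass (SE, n = 2 lines, edgeR adjusted p = 0.888). Per gene length, HK2 made up 18.5% of the summed hexokinase 1 and 2 RPKM in T24T circ (95% exact binomial interval 17.5% to 19.5%) against 11.0% in T24T vector (10.1% to 12.0%). In EJ the share was 10.7% with circ (9.51% to 11.9%) against 6.95% with vector (6.06% to 7.93%).

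PFKFB3 encodes the kinase that makes fructose 2,6-bisphosphate, the activator of phosphofructokinase. It had 5400 counts in T24T circ against 3023 in T24T vector, and 5600 in EJ circ against 5824 in EJ vector. The T24T vector library stood below the other 3. The fold was 1.70 in T24T (1.62 to 1.77) and 1.03 in EJ (0.991 to 1.07), and the test over both lines passed (0.40 ± 0.10, SE, n = 2 lines, edgeR adjusted p = 0.00955), resting on T24T. PFKFB4, a relative with stronger phosphatase activity, had 380 counts in T24T circ against 262 in T24T vector and 125 in EJ circ against 163 in EJ vector, and did not pass (0.16 ± 0.15, edgeR adjusted p = 0.567).

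None of the members from GPI to LDHB along the chain passed the test, and the fitted log2 fold changes of its 14 members other than ALDOC lay between -0.16 (PKM) and 0.13 (PFKP). GAPDH, which oxidises glyceraldehyde 3-phosphate, had 52923 counts in T24T circ against 53377 in T24T vector, and 27557 in EJ circ against 30890 in EJ vector, a log2 ratio of -0.09 in T24T and -0.07 in EJ. PKM, the pyruvate kinase gene, had 36851 counts in T24T circ against 38266 in T24T vector, and 21522 in EJ circ against 26229 in EJ vector, with a fitted change of -0.16 ± 0.08 (SE, n = 2 lines, edgeR adjusted p = 0.182). LDHA, the lactate dehydrogenase subunit that HIF induces, had 26565 counts in T24T circ against 25697 in T24T vector, and 7851 in EJ circ against 9441 in EJ vector (fitted change -0.10 ± 0.08, edgeR adjusted p = 0.474). In T24T 8 of the 19 enzymes and regulators had a ratio below 0, against 8645 of all 17689 tested genes. The counting interval of the fold lay wholly above 1 for 7 of the 19, against 19.7% of all tested genes, and wholly below 1 for 5, against 17.6%. In EJ 16 of the 19 had a ratio below 0, against 8795 of all 17689 tested genes. There 2 of the 19 intervals lay wholly above 1, against 16.7% of all tested genes, and 13 wholly below 1, against 16.3%. Intervals of abundant genes are narrow and hold no biological spread. The log2 ratio was within 0.2 of 0 for 15 of the 19 in T24T and for 17 in EJ. Of all 17689 tested genes, 8137 lay within 0.2 of 0 in T24T and 8415 in EJ, and genes with few counts scatter more.

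SLC2A1 is the main basal glucose transporter, and SLC16A3 exports lactate. SLC2A1 had 3039 counts in T24T circ against 2488 in T24T vector, and 1032 in EJ circ against 1176 in EJ vector, and did not pass (0.07 ± 0.09, edgeR adjusted p = 0.682). SLC16A3 had 1506 counts in T24T circ against 1886 in T24T vector, and 289 in EJ circ against 381 in EJ vector. It was the 1 member to fall, lower with circ in both lines, by 0.36 ± 0.09 on the log2 scale (SE, n = 2 lines, edgeR adjusted p = 0.00945).

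Summed over genes, the HIF-induced class took 0.165% of all counts in T24T circ against 0.110% in T24T vector, and 0.0616% in EJ circ against 0.0626% in EJ vector. In T24T STC2, VEGFA and BHLHE40 had the most of these counts, and in EJ BHLHE40, STC2 and VEGFA. The enzymes and regulators took 1.30% in T24T circ against 1.37% in T24T vector, and 0.900% in EJ circ against 0.972% in EJ vector. The share of the HIF-induced class was higher with circ in T24T, where the exact 95% binomial intervals did not overlap (0.163% to 0.167% with circ, 0.109% to 0.112% with vector). In EJ they overlapped (0.0603% to 0.0629% with circ, 0.0613% to 0.0638% with vector). The share of the enzymes and regulators was lower with circ, with intervals that did not overlap in T24T (1.298% to 1.308% with circ, 1.361% to 1.372% with vector) or in EJ (0.896% to 0.905% with circ, 0.967% to 0.977% with vector). These intervals between single libraries cover counting error only.

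The response of each gene in T24T was set against that in EJ as a difference of log2 ratios, T24T minus EJ. The difference was above 0 in all 11 HIF-induced genes and in 16 of the 19 enzymes and regulators, against 51.0% of all tested genes. It was largest for ANKRD37 (1.63, 95% counting interval 1.10 to 2.15), STC2 (1.21, 1.10 to 1.32), NDRG1 (1.20, 0.84 to 1.56) and ADM (1.20, 0.32 to 2.08). Among enzymes and regulators PFKFB4 (0.75, 0.34 to 1.15), PFKFB3 (0.72, 0.64 to 0.80) and HK2 (0.54, 0.23 to 0.84) led the genes whose interval excluded 0. The interval lay above 0 for 8 of 11 HIF-induced genes and 11 of 19 enzymes and regulators, compared with 11.6% of all genes with a count in every library. It lay below 0 for ENO1 alone, compared with 9.29% of all such genes. These intervals hold no biological spread and are narrow for abundant genes, so such shares depend on depth. The smallest difference among enzymes with an interval above 0 was that of PKM (0.06, 0.03 to 0.09). With 1 library for each combination, an interaction of line and transfection has no residual degree of freedom, and this difference was not tested.

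Levels of most of these genes were higher in T24T than in EJ cells, with circ and with vector. In the same fit, with the transfection as the block, 27 of the 32 tested members were higher in T24T than in EJ, 2 were lower and 3 did not pass. The background was 21.9% of all tested genes higher and 19.5% lower. DESeq2 called 22 members higher and 1 lower (background 10% higher and 8.08% lower). The median log2 fold change was 1.04 for HIF-induced genes and 0.61 for enzymes and regulators, against 0.01 over all tested genes. For the HIF-induced genes the median was 1.25 in circ cells and 0.87 in vector cells. For the enzymes and regulators it was 0.72 in circ cells and 0.53 in vector cells.

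**Figure D2:**
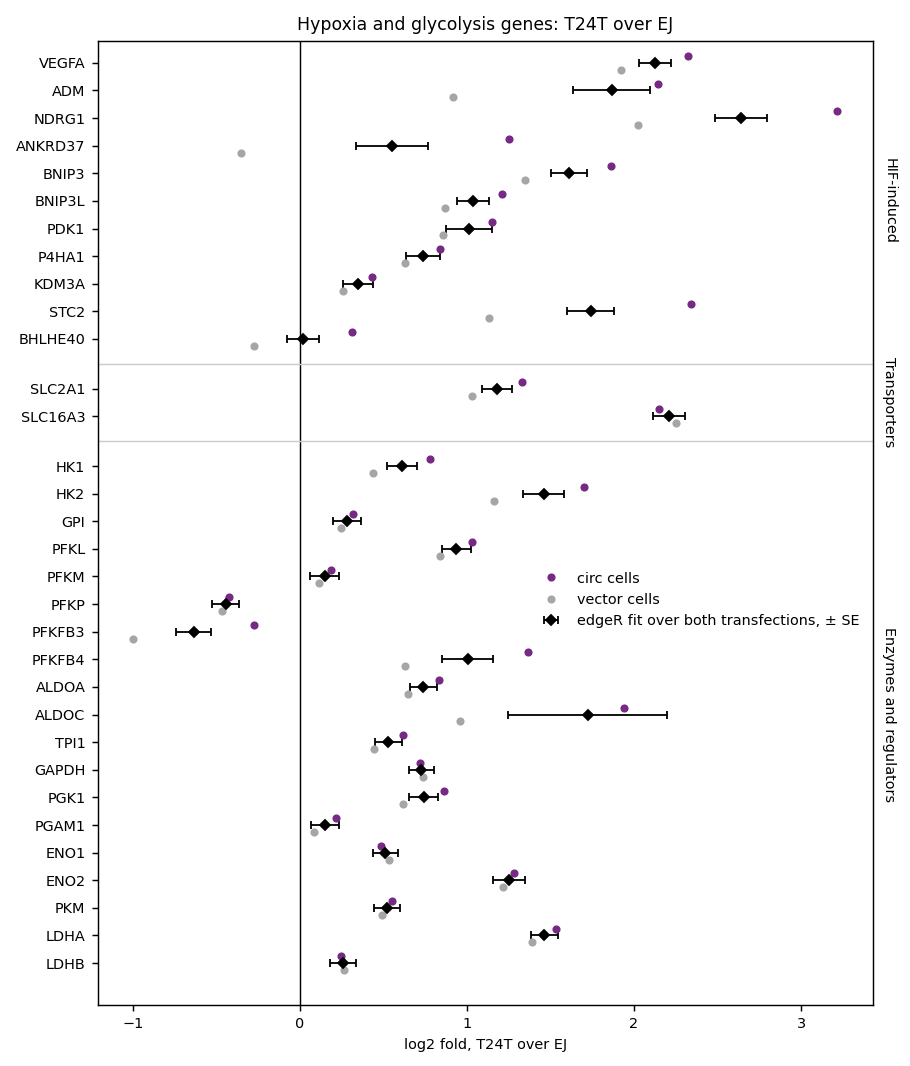
Fold of T24T over EJ on the log2 scale (x axis) for the 32 tested members (y axis). Diamonds are the edgeR fit over both transfections with its SE, and dots are the ratios of 1 library to 1 library in circ cells (purple) and vector cells (grey); NDRG1, SLC16A3 and VEGFA lie farthest to the right, and PFKFB3 and PFKP lie below 0.

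NDRG1 led with 2.64 ± 0.16 (SE, n = 2 transfections, edgeR adjusted p = 1.63e-15), with 8.07 RPKM in T24T circ against 0.900 in EJ circ, and with 4.17 RPKM in T24T vector against 1.05 in EJ vector. SLC16A3 followed with 2.21 ± 0.10 (edgeR adjusted p = 6.48e-19), VEGFA with 2.12 ± 0.09 (edgeR adjusted p = 7.85e-19), ADM with 1.87 ± 0.23 (edgeR adjusted p = 5.89e-08) and STC2 with 1.74 ± 0.14 (edgeR adjusted p = 5.22e-12). For ADM the T24T over EJ ratio on the log2 scale was 2.14 in circ cells and 0.92 in vector cells. ADM passed in DESeq2 too, but not with limma on log2(RPKM + 1) or without a block. LDHA was higher by 1.46 ± 0.08 (edgeR adjusted p = 2.66e-16) and its partner LDHB by 0.25 ± 0.08 (edgeR adjusted p = 0.00885). LDHA made up 43.8% of the summed lactate dehydrogenase RPKM in T24T circ against 24.1% in EJ circ, and 42.3% in T24T vector against 25.2% in EJ vector. HK2 was higher in T24T by 1.46 ± 0.12 (edgeR adjusted p = 8.86e-12), ENO2, the neuronal-type enolase, by 1.25 ± 0.09 (edgeR adjusted p = 8.81e-13) and SLC2A1 by 1.18 ± 0.09 (edgeR adjusted p = 9.32e-13).

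The 2 members lower in T24T were both tied to phosphofructokinase. PFKFB3 was lower by 0.64 ± 0.10 on the log2 scale (edgeR adjusted p = 8.3e-06), with 54.6 RPKM in T24T circ against 69.5 in EJ circ, and with 32.7 RPKM in T24T vector against 67.9 in EJ vector. PFKP, the platelet-type phosphofructokinase gene, was lower by 0.45 ± 0.08 (edgeR adjusted p = 3.82e-05), while the liver-type PFKL was higher by 0.94 ± 0.09 (edgeR adjusted p = 9.71e-11). PFKP passed in DESeq2 too, but not without a block. PFKP made up 68.4% of the summed RPKM of PFKL, PFKM and PFKP in T24T circ against 81.8% in EJ circ, and 65.7% in T24T vector against 78.9% in EJ vector. BHLHE40, PFKM and PGAM1 did not pass the test. ANKRD37 passed narrowly (0.55 ± 0.22, edgeR adjusted p = 0.0410). Its T24T over EJ ratio on the log2 scale was 1.25 in circ cells and -0.35 in vector cells, so that call rests on the circ libraries.

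**Figure D3:**
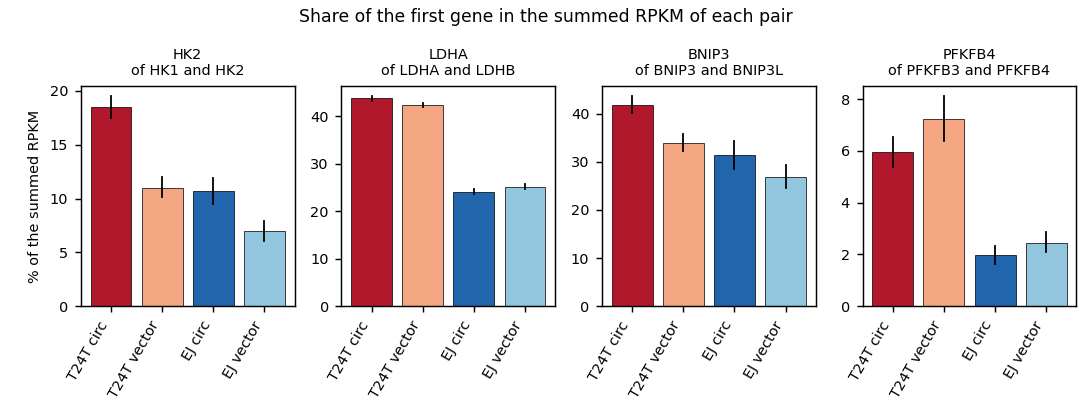
Share of the first gene in the summed RPKM of a pair of related genes (y axis, percent) in T24T circ, T24T vector, EJ circ and EJ vector. Bars are 1 library each and lines are exact 95% binomial intervals. The HK2 share is higher with circ than with vector in both lines, with intervals apart. The BNIP3 share is higher with circ as well, but its intervals overlap in EJ, where the counts of BNIP3 and BNIP3L were both lower with circ. The LDHA share parts the lines.

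Per gene length, levels among the members ran from GAPDH down to genes with no count. GAPDH was highest, at 983 RPKM in T24T circ, 1062 in T24T vector, 629 in EJ circ and 663 in EJ vector. ENO1 followed at between 428 and 625 RPKM, then TPI1 (269 to 398), LDHB (270 to 334) and PKM (171 to 265), of which TPI1 and LDHB overlapped in range. The hexokinases, PFKL, PFKM, GPI, ENO2 and PFKFB4 lay below 50 RPKM. BHLHE40 was the most abundant HIF-induced gene in EJ (60.4 RPKM with circ and 56.9 with vector), and STC2 in T24T circ (85.5 RPKM).

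**Figure D4:**
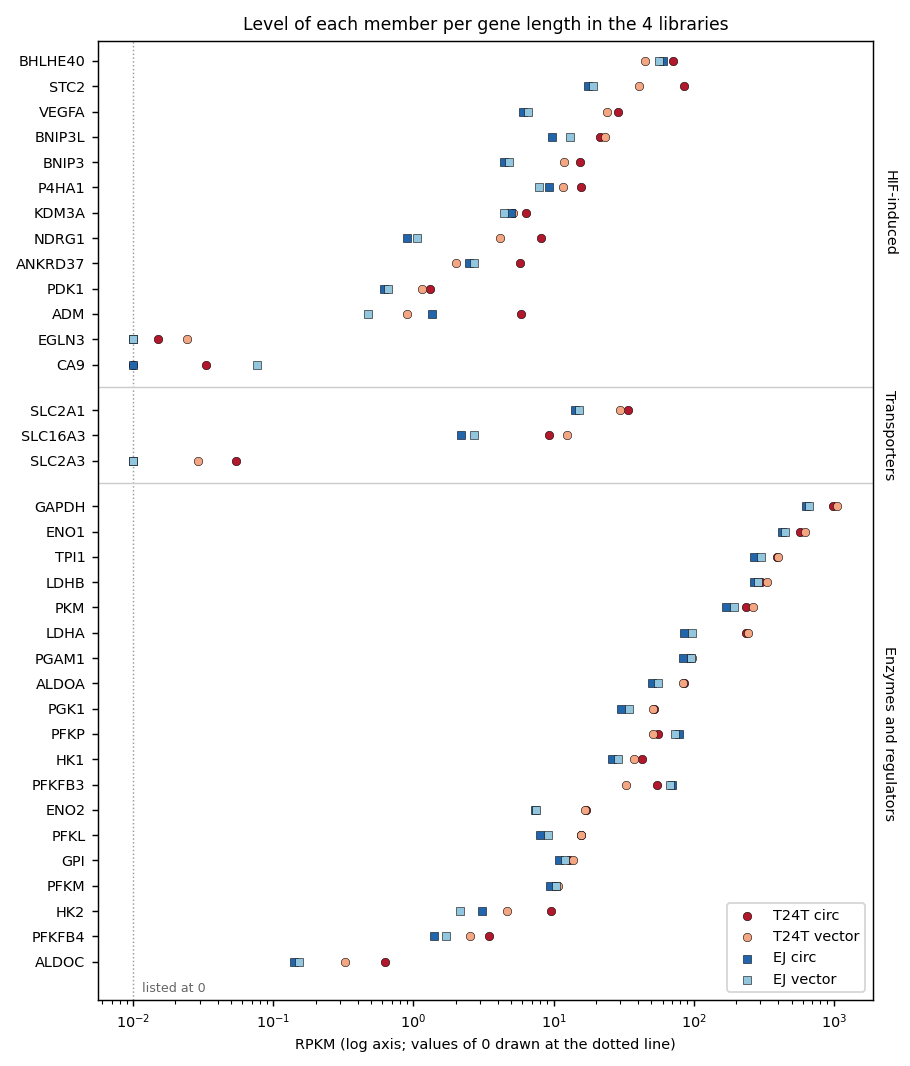
Deposited RPKM of all 35 members (y axis) in each library on a log axis (x axis), with values of 0 drawn at the dotted line. Circles are T24T and squares EJ, darker for circ; GAPDH, ENO1, TPI1, LDHB and PKM lie at or above 171 RPKM in each library, and CA9, EGLN3 and SLC2A3 at or below 0.0766 RPKM.

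Some of these genes share sequence or position with others, and how the counting split such reads is not given in the sources used here. Pseudogenes of TPI1, GAPDH, ENO1 and LDHA summed to at most 1.81% of the parent's counts in any library, and those of BNIP3 to at most 3.72%. A gene listed as RP5-940J5.9 on the opposite strand shares 422 exon bases with GAPDH and had 20408 counts in T24T circ, 20587 in T24T vector, 10562 in EJ circ and 11734 in EJ vector. BHLHE40-AS1, antisense to BHLHE40, reached at most 4.14% of its counts. Of the members that rose or fell, other than ANKRD37, SLC16A3 had the largest overlap with exons of the opposite strand (5.36% of its exon bases, with CSNK1D).

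The genes that control HIF were also measured. Of 17 listed regulators 15 were tested, 3 rose with circ, 1 fell and 11 did not pass. The background over all tested genes was 7.13% rises and 5.56% falls, so 1 fall of 15 is near it. HIF1A fell, with 2917 counts in T24T circ against 3689 in T24T vector and 1673 in EJ circ against 2371 in EJ vector (-0.41 ± 0.08, SE, n = 2 lines, edgeR adjusted p = 0.00103). EPAS1, the other alpha subunit, rose, with 1228 counts in T24T circ against 742 in T24T vector and 660 in EJ circ against 631 in EJ vector (0.42 ± 0.10, SE, n = 2 lines, edgeR adjusted p = 0.00617). CITED2, a HIF-induced protein that competes with HIF for its coactivators (0.57 ± 0.12, edgeR adjusted p = 0.00147), and the coactivator gene CREBBP (0.35 ± 0.09, edgeR adjusted p = 0.00617) rose as well. CITED2 had 1443 counts in T24T circ against 696 in T24T vector, and 659 in EJ circ against 644 in EJ vector. Its fold in EJ was 1.09 (0.980 to 1.22), so its call rests mostly on T24T. In DESeq2 HIF1A passed (DESeq2 adjusted p = 0.0196). EPAS1 (DESeq2 adjusted p = 0.186), CITED2 (DESeq2 adjusted p = 0.543) and CREBBP (DESeq2 adjusted p = 0.151) did not. ARNT (-0.04 ± 0.09, edgeR adjusted p = 0.815), VHL (-0.05 ± 0.09, edgeR adjusted p = 0.778) and the oxygen sensor gene EGLN1 (0.20 ± 0.12, edgeR adjusted p = 0.287) did not pass. The median ratio over the 15, on the log2 scale, was 0.01 in T24T and 0.06 in EJ.

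A further list held other known HIF targets. Of 35 listed, 32 were tested, 5 rose and 27 did not pass, against 7.13% rises and 5.56% falls over all tested genes. The median log2 ratio was 0.21 in T24T and -0.24 in EJ. PPP1R3C, a glycogen-targeting phosphatase subunit gene, rose by 1.25 ± 0.37 (edgeR adjusted p = 0.0208), PLIN2, which coats lipid droplets, by 1.19 ± 0.19 (edgeR adjusted p = 4.32e-05) and HILPDA, an inhibitor of lipid droplet breakdown, by 0.97 ± 0.24 (edgeR adjusted p = 0.00623). ANGPTL4 (2001 counts in T24T circ against 655 in T24T vector, and 172 in EJ circ against 263 in EJ vector) and JMJD6 (1066 counts in T24T circ against 639 in T24T vector, and 691 in EJ circ against 474 in EJ vector) also rose, and were named here after their values were seen. HILPDA had 398 counts in T24T circ against 106 in T24T vector, and 83 in EJ circ against 108 in EJ vector, and PPP1R3C was likewise higher in T24T alone. So was ANGPTL4, with a fold of 2.90 in T24T (2.65 to 3.17) and 0.699 in EJ (0.574 to 0.851). ANGPTL4 did not pass in DESeq2 (DESeq2 adjusted p = 0.840), and JMJD6 did (DESeq2 adjusted p = 0.00586). PLIN2 had 399 counts in T24T circ against 155 in T24T vector, and 23 in EJ circ against 16 in EJ vector. Its log2 ratio was 0.56 in EJ, where the counting interval of the fold ran from 0.778 to 3.11. In T24T 7 of the 32 were at least 2-fold higher with circ, against 2.52% of all tested genes, and in EJ 0 were, against 2.26%.

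Side branches of glycolysis and genes of pyruvate fate had medians below 0 in both lines. Of 50 listed, 39 were tested, 1 rose, 7 fell and 31 did not pass, against 7.13% rises and 5.56% falls over all tested genes. The median log2 ratio was -0.15 in T24T and -0.15 in EJ. The rise was that of PCK2, the mitochondrial phosphoenolpyruvate carboxykinase gene (0.65 ± 0.15, edgeR adjusted p = 0.00337). PCK2 had 555 counts in T24T circ against 226 in T24T vector, and 431 in EJ circ against 424 in EJ vector. Its call rests mostly on T24T, and it did not pass in DESeq2 (DESeq2 adjusted p = 0.568). The largest falls were those of SLC2A6, a glucose transporter family gene (-0.66 ± 0.20, edgeR adjusted p = 0.0245), and of PDP2 (-0.45 ± 0.11, edgeR adjusted p = 0.00482) and PDP1 (-0.35 ± 0.11, edgeR adjusted p = 0.0296), whose products reactivate pyruvate dehydrogenase. ENO3, the muscle-type enolase gene, named here after its values were seen, also fell, with 6016 counts in T24T circ against 7340 in T24T vector and 3722 in EJ circ against 4615 in EJ vector (-0.29 ± 0.08, SE, n = 2 lines, edgeR adjusted p = 0.0174). In DESeq2 PDP2 (DESeq2 adjusted p = 0.158), PDP1 (DESeq2 adjusted p = 0.292) and ENO3 (DESeq2 adjusted p = 0.109) did not pass.

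**Figure D5:**
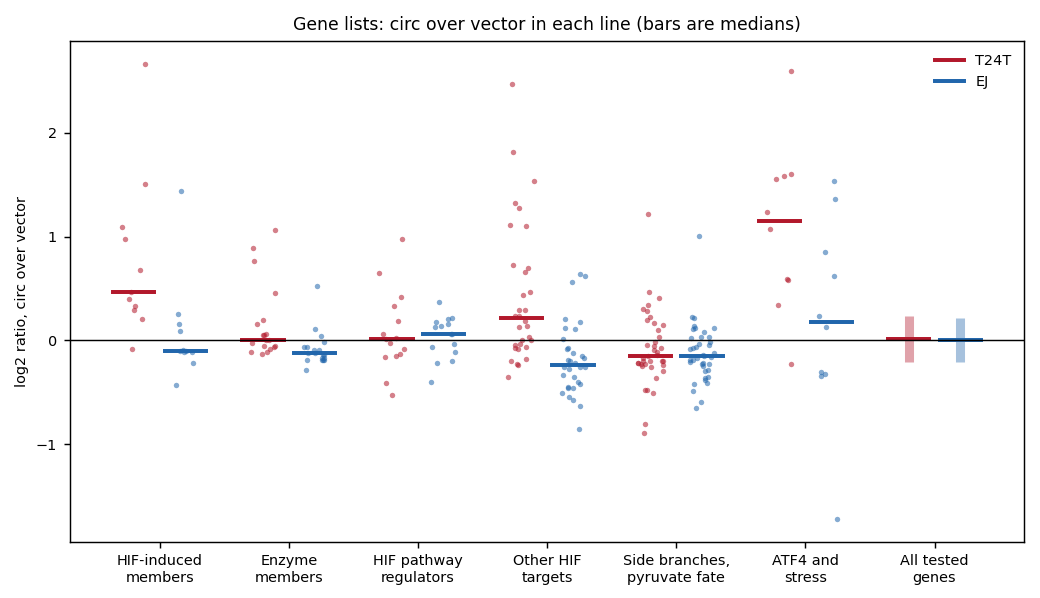
Log2 ratio of circ over vector (y axis) for the tested genes of each list (x axis), in T24T (red) and EJ (blue), 1 library against 1. Dots are genes, short bars are list medians, and the thick vertical bars of all tested genes are interquartile ranges; the medians of HIF-induced members and of other HIF targets are above 0 in T24T and below 0 in EJ.

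Targets of ATF4 and other stress genes were measured beside these. Of 10 listed 6 rose, 1 fell and 3 did not pass, against 7.13% rises and 5.56% falls over all tested genes. The median log2 ratio was 1.15 in T24T and 0.18 in EJ. The counting interval of the fold lay wholly above 1 for 9 of the 10 in T24T, against 19.7% of all tested genes, and for 6 in EJ, against 16.7%. It lay wholly below 1 for 0 in T24T, against 17.6%, and for 4 in EJ, against 16.3%. For 3 of the 10 it lay above 1 in T24T and below 1 in EJ, against 1.01% of all tested genes. ATF3 had the largest rise of the list (1.98 ± 0.14, edgeR adjusted p = 2.9e-11), PPP1R15A (1.30 ± 0.08) and DDIT3 (1.23 ± 0.12) rose too, and CHAC1, with 6 counts in T24T circ against 7 in T24T vector and 18 in EJ circ against 68 in EJ vector, fell (-1.50 ± 0.40, edgeR adjusted p = 0.0103). The CHAC1 call rests on EJ, since its log2 ratio was -0.22 in T24T. ATF4 mRNA, named here outside the rule for named genes, did not pass (0.02, edgeR adjusted p = 0.943). The part of the stress genes in the rise of the HIF-induced genes was not tested.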

How the data were processed

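RNA was sequenced from 4 samples, 1 for each combination of cell line and transfection. The authors deposited whole-number read counts per gene and RPKM values per gene. Per the submitters' processing notes, Trimmomatic, HISAT2 and the hg38 build were used, and the counting tool and its strand setting are not given in the sources used here. The deposited RPKM values equalled the deposited count per kilobase of gene length and total count, for 100% of values within a relative tolerance of 1e-06. Total counts were 14703455 to 18057768 per library.

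Genes with at least 10 counts in 1 library and 20 over all 4 were kept. Counts were TMM-scaled and fitted in edgeR 4.0.16 (R 4.3.3) by the quasi-likelihood test with line and transfection as terms, and p-values were adjusted by Benjamini-Hochberg over all 17689 genes, with a threshold of 0.05. The line serves as the pairing, since circ and vector libraries of a line come from the same cell line. Nothing in the labels names separate cultures, so p-values measure only the spread between these libraries. SE is the log2 fold change divided by the square root of F. Within a line, log2 ratios use scaled counts with a prior count of 2, and folds have exact 95% binomial intervals (SciPy 1.17.1), which cover counting error only. The 4 libraries limit every p-value. Alternatives were RLE and library-size scaling, other filters and prior counts, DESeq2 1.42.0, limma 3.58.1 on log2(RPKM + 1) and log2(RPKM + 0.1), no block, and leaving out each pair.

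The members and all gene lists were chosen with earlier results of these data known. Beside the members, the text names HIF1A, EPAS1, ARNT, VHL and EGLN1, and of each other pathway list up to 3 called genes per direction with the largest change, with exceptions stated.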

Additional observations from a re-analysis of the deposited data

Results flagged for a closer look

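Of the members, 3 lay on opposite sides of a ratio of 1 in the 2 lines, with counting intervals clear of 1 in both. They were STC2, HK1 and ALDOA, each higher with circ in T24T and lower with circ in EJ. The T24T minus EJ difference of log2 ratios was 1.21 for STC2, 0.34 for HK1 and 0.19 for ALDOA. For ALDOA the fold was 1.035 in T24T (1.005 to 1.066) and 0.908 in EJ (0.873 to 0.945), so its T24T interval barely cleared 1. For HK1 it was 1.145 in T24T (1.097 to 1.195) and 0.904 in EJ (0.855 to 0.956). These intervals cover counting error only and are narrow for abundant genes. Over all tested genes, 1.01% had such intervals in the same direction as these members, and 1.54% in either direction. The difference between lines was not tested, since each combination has 1 library.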

How the results depend on the processing

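The count of members that rose with circ was 8, of which 6 were HIF-induced and 2 enzymes or regulators. With 50 counts required in each line it was 4 (3 HIF-induced, 1 enzyme), and with DESeq2 1 (0 HIF-induced, 1 enzyme). It was 0 in every class with limma on log2(RPKM + 1) and on log2(RPKM + 0.1), and 0 in every class with no replicate block, where edgeR called 0 genes in all and 397 had an unadjusted p under 0.05. With limma 0 genes were called and 3588 or 3713 had an unadjusted p under 0.05, among them 4 or 6 members. The count of members that fell was 1, a transporter. It was 2 with RLE size factors, where 1 HIF-induced gene fell, and 0 with DESeq2, limma at either pseudocount and no replicate block. Leaving out a pair of libraries leaves 1 ratio, counted as 2-fold or more with no test: 1 to 4 members rose (1 to 3 HIF-induced, 0 to 1 enzymes) and 0 to 0 fell. With either pair left out the log2 ratio of circ over vector was -0.22 to 0.98 for NDRG1, -0.10 to 1.50 for ANKRD37, -0.12 to 1.09 for STC2, -0.26 to 2.47 for PPP1R3C and -0.28 to 1.81 for HILPDA, each below 0 without the T24T pair. PLIN2, at 1.19, was at 0.56 without the T24T pair, and CHAC1, at -1.50, was at -0.22 without the EJ pair. For T24T over EJ, 27 members were higher (10 HIF-induced, 15 enzymes) and 2 enzymes lower. The lower count was 1 with DESeq2 and 0 with no replicate block. With a pair left out, 9 to 16 were 2-fold higher (from 4 HIF-induced, and 3 to 6 enzymes) and 0 lower. ANKRD37 was at -0.35 to 1.25, below 0 without the circ pair, and BHLHE40, not called at 0.02, was at -0.046 with library size alone, -0.0038 with no filter, and -0.046 and -0.048 with limma. Within lines, on log2(RPKM + 1) the 2-fold counts were 0 in EJ and 0 for T24T enzymes, with no filter 1 HIF-induced gene (CA9, 0 and 2 counts) was 2-fold lower in EJ, and the transporters' T24T median was 0.20. The blocked fit is the reported one, and the cause of these changes was not tested. Counts under about 50 limit ADM in vector cells and ALDOC.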
